A study of Mus musculus with 6 samples.

Results

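The Schlafen genes are a family of mouse genes that lie side by side on chromosome 11 and are best known in T cells for holding resting cells out of division. Their RNA was followed here in cultured CD8+ effector T cells (Teff) with and without stearoyl-CoA desaturase 1, the enzyme encoded by Scd1 that places the first double bond in stearic and palmitic acid. The members were taken by symbol, and all 7 of the 7 listed genes (Slfn1, Slfn2, Slfn3, Slfn4, Slfn5, Slfn8 and Slfn9) were found among the 34745 genes of the expression tables. Slfn1 was the only one of the 7 members whose groups did not overlap, a share near the 13.6% of all 17192 genes with a count whose groups did not overlap in either direction. Its level in FPKM (reads scaled to library depth and gene length) was 29.3 ± 10.0 for WT (mean ± SD, n = 3) and 13.8 ± 1.15 for Scd-1-/- Teff (n = 3). The abundant Slfn2, its neighbour, stood at 73.4 ± 17.6 and 69.8 ± 14.01 FPKM (SD, n = 3 each). None of the 7 members passed the thresholds of the study in the edgeR fit without pairing, and Slfn1 passed them once libraries with the same replicate number were compared with each other. The paper itself lists Slfn1 among proliferation-related genes that were lower in Scd-1-/- Teff, and does not say whether libraries were paired.

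The libraries came from CD8+ T cells of the spleen of male mice aged 6 to 8 weeks, isolated with magnetic beads. The 3 WT libraries were from C57BL/6J mice and the 3 Scd-1-/- libraries from B6.129-Scd1tm1Ntam/J mice, which lack the enzyme in every cell of the body. Cells of both genotypes received anti-CD3 (5 μg/mL), anti-CD28 (0.5 μg/mL) and IL-2 (100 U/mL) for 3 days and IL-2 alone for 3 more days, and were harvested on day 6. No resting T cells are among the libraries, so the fall of Schlafen RNA that follows activation lies outside these data. The WT mice were bought and the Scd-1-/- mice were a separate colony, so genotype and source of the mice cannot be told apart. Neither the labels nor the methods say whether a replicate is a mouse, a pool or a culture, and p-values then measure only the spread between these libraries.

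As background, mouse Schlafen proteins share an amino-terminal core and fall into short forms (Slfn1 and Slfn2), intermediate forms (Slfn3 and Slfn4) and long forms (Slfn5, Slfn8 and Slfn9) that add a helicase-like domain. Forced expression of Slfn1 in thymocytes restrains growth, and in fibroblasts it lowers cyclin D1. Loss of Slfn2 in the elektra mouse leaves T cells unable to stay quiescent and prone to death on activation, and the protein binds transfer RNAs and shields them from cleavage during oxidative stress. Many members are induced by type I interferon, and Slfn4 is best known from myeloid cells. The annotation used here (GENCODE M21, GRCm38) gave coding sequences of 337 and 378 codons for Slfn1 and Slfn2, 640 and 602 for Slfn3 and Slfn4, and 884, 910 and 910 for Slfn5, Slfn8 and Slfn9.

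The cluster spans chr11:82951349-83286726, and its order is Slfn5, Slfn9, Slfn8, the pseudogene Slfn10-ps, Slfn2, Slfn1, Slfn4, Slfn3 and Slfn14. Slfn2 (chr11:83065112-83070678) and Slfn1 (chr11:83116849-83122670) are neighbours on the plus strand, each with 2 exons. Their coding sequences matched at 69.1% of the shorter one, beside 88.6% for Slfn3 and Slfn4 and 92.7% for Slfn8 and Slfn9. Exact matches over 100 bases with any other Schlafen transcript covered 0% of Slfn1 and 0.128% of Slfn2, so that few reads could be shared between them. For Slfn8 and Slfn9 the shares were 3.38% and 3.71%, most of it with Slfn10-ps, and how the authors counted reads that match several genes is not given in the sources used here. An antisense non-coding gene, Gm20234, is annotated across Slfn2 and was not analysed here, and since the labels and the methods name different library kits, its reads and those of Slfn2 may not be separable.

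The promoter windows of the members were searched for sequence that the short or the long forms have in common. The RefSeq windows (GRCm38.p6, 250 bases before to 50 bases after the first start site listed) are printed 5′ to 3′ in the direction of the gene for the short forms and Slfn3, the 3 members above the expression minimum, and for the near-identical pair Slfn8 and Slfn9. They are chr11:83116570-83116869 for Slfn1, chr11:83064862-83065161 for Slfn2 and chr11:83191080-83191379 for Slfn3 on the plus strand, and chr11:83020761-83021060 for Slfn8 and chr11:82991781-82992080 for Slfn9 on the minus strand. Capitals mark the core of an ETS site (ACTTCCTG or its reverse complement CAGGAAGT) and the interferon-stimulated response element (GAAANNGAAA or its reverse complement).
Slfn1: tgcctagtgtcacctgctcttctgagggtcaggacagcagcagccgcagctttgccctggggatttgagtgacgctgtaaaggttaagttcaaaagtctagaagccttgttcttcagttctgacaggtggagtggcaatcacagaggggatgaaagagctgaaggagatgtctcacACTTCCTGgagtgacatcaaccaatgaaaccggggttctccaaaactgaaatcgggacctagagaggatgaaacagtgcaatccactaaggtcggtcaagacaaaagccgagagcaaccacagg
Slfn2: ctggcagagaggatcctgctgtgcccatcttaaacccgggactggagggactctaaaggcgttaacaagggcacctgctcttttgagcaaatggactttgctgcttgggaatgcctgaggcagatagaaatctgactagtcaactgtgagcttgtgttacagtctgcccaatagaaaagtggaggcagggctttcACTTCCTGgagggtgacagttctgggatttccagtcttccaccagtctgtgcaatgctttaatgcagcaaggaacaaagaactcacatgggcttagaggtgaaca
Slfn3: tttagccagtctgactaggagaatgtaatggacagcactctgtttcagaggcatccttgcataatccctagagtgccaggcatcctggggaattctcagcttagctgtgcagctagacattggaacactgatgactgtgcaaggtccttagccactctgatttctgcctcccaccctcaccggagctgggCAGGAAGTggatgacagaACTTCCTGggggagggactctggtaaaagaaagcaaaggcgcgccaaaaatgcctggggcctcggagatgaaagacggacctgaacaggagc
Slfn8: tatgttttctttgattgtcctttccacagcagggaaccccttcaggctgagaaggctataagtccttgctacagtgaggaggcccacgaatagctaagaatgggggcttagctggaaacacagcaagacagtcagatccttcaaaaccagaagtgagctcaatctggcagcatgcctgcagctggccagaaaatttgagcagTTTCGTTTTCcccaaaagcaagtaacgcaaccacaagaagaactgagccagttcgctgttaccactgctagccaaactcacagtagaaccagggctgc
Slfn9: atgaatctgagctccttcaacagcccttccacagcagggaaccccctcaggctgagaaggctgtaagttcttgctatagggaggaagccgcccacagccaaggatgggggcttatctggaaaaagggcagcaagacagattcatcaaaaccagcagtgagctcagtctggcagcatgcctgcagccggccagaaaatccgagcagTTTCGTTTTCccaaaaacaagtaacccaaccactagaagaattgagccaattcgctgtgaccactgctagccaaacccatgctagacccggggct

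The ETS core was found in the windows of Slfn1, Slfn2, Slfn3 and Slfn4, at 74, 55, 42 and 73 bases before the start site, and Slfn3 held a further copy on the other strand at 60 bases before it. It was searched for after these windows had been read, and 3.38% of the 27025 promoter windows of the reference hold it. The longest run that the windows of Slfn1 and Slfn2 share is CACTTCCTGGAG (12 bases), which contains that core, and Slfn1 and Slfn4 share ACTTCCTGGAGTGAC (15 bases). The interferon element was found in the windows of the long forms Slfn5, Slfn8 and Slfn9, at 155, 48 and 45 bases before the start site, and in 3.49% of all windows. Its letters were not in the windows of Slfn1, Slfn2, Slfn3 and Slfn4. Slfn8 and Slfn9 windows were 80.7% identical and carry the interferon element at nearly the same place. A TCF/LEF core (CTTTGA, both strands) was in the windows of Slfn4, Slfn5 and Slfn8 and in 16.2% of all windows, while a FOXO core (GTAAACA) and a STAT element (TTCNNNGAA) were in no member's first window and in 3.55% and 8.47% of all windows. No match overlapped another, and a match of letters is a description of the window, not a site shown to be bound.

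The 6 libraries held between 14034479 and 15866216 counts, and scaling factors lay between 0.986 and 1.03. At this depth the limit of 3 counts that a count of 0 allows lay between 0.189 and 0.214 CPM (counts scaled to library depth alone), which covers counting error only. Scd1 had 4272, 3074 and 3761 counts in WT and 30, 36 and 20 in Scd-1-/- libraries (log2 fold change -7.04), as the labels say. The replicate-1 libraries of the genotypes were nearer to each other (chi-square per degree of freedom of 20.5 over genes) than WT replicate 1 was to WT replicates 2 and 3 (54.6 and 57.9). Scd-1-/- replicate 1 likewise lay 54.5 and 65.9 from its own group. Differences were tested by quasi-likelihood in edgeR over the 9627 genes whose mean FPKM reached 1. Calls followed the thresholds of the study (at least 1 on the log2 scale in either direction, with p under 0.001), and separately a Benjamini-Hochberg adjusted p under 0.05.

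Among the members, RNA levels per length covered a wide range. Slfn2 made up 72.8% and Slfn1 21.9% of the summed mean FPKM of the members, and 95.6% and 86.2% of the 17192 genes with a count had a lower mean FPKM. Slfn3 followed at a mean of 3.92 FPKM over the 6 libraries, and then Slfn8 (0.778 FPKM) and Slfn9 (0.488 FPKM). Slfn5 and Slfn4 stood at 0.0351 and 0.00511 FPKM, from 9 counts or fewer in each library. Only Slfn1, Slfn2 and Slfn3 exceeded the FPKM minimum, and values of the other 4 members come from a fit that kept all 17192 genes with a count, in which 0.861% of genes passed the thresholds and 0.489% the adjusted p. In each library the order Slfn2, Slfn1, Slfn3 and then Slfn8 held, and the ranges of these 4 did not overlap over the 6 libraries, while those of Slfn8 and Slfn9 did.

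**Figure D1:**
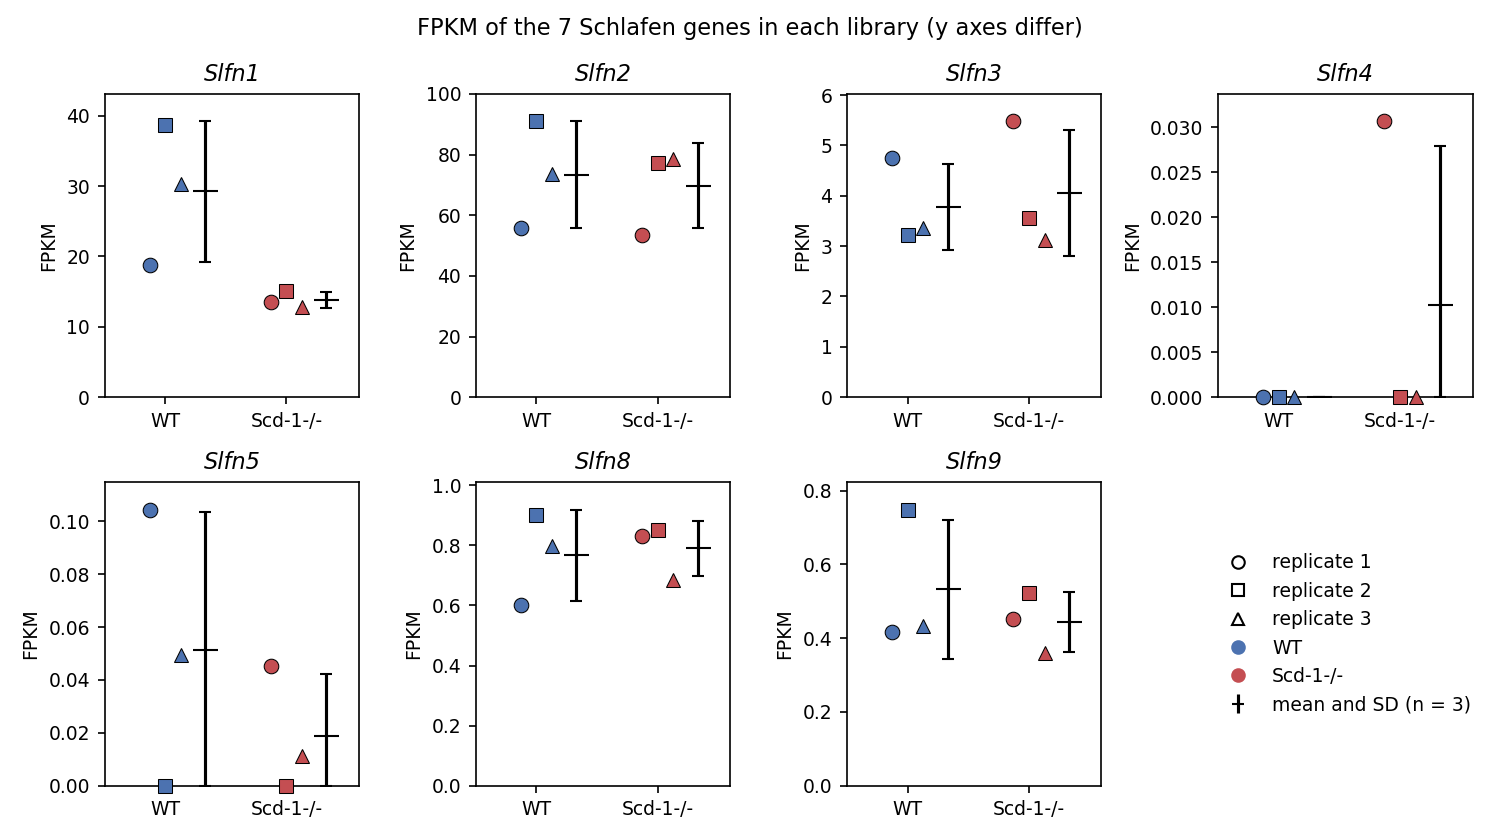
FPKM (y axes, which differ between panels) of the 7 members in the WT (blue) and Scd-1-/- (red) libraries, with circles, squares and triangles for replicates 1, 2 and 3 and bars for the mean and SD of 3 libraries, cut at 0. The 3 Scd-1-/- values of Slfn1 lie between 12.8 and 15.1 FPKM, all under the lowest WT value of 18.7 FPKM, and the groups of the other 6 members overlap.

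Slfn1, the short form that restrains growth of thymocytes, had 530, 1011 and 805 counts in WT replicates 1, 2 and 3 and 393, 397 and 380 counts in the Scd-1-/- replicates. These correspond to 18.7, 38.6 and 30.4 FPKM in WT and 13.5, 15.1 and 12.8 FPKM in Scd-1-/- Teff. Every Scd-1-/- library lay below every WT library, and the WT libraries were spread far more widely than the Scd-1-/- libraries. The log2 fold change was -1.05 (SE 0.256, 95% confidence interval -1.65 to -0.46), with an unadjusted p of 0.00369 and an adjusted p of 0.203 in edgeR, so that Slfn1 did not pass either rule. It was the 1 member with an unadjusted p under 0.05. In that fit 71 of 9627 genes (0.738%) passed the thresholds, 0.114% passed the adjusted p and 10.1% had an unadjusted p under 0.05, while 8.32% of genes had all Scd-1-/- libraries under all WT libraries and 1.42% had a log2 fold change of -1 or lower. In bulk RNA, fewer cells that express Slfn1 and less Slfn1 RNA per cell cannot be told apart.

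Whether Slfn1 was called depended on the fit. The Scd-1-/- to WT ratio of scaled CPM within a replicate number was 0.721, 0.393 and 0.442 for replicates 1, 2 and 3, and lay below 1 in 3 of 3 pairs. With the replicate number as a block, the log2 fold change was -1.003 (SE 0.181, 95% confidence interval -1.42 to -0.58, adjusted p 0.0270 in edgeR), and Slfn1 passed both rules, as did 1.91% of genes by the thresholds and 4.7% by the adjusted p. DESeq2 without a block gave -1.06 with an adjusted p of 0.0102, where 1.67% of genes passed the thresholds and 2.76% the adjusted p. Limma on log2(FPKM + 1) gave -0.97 with an adjusted p of 0.217, where 0.582% and 0.177% of genes passed. Without WT replicate 1, the WT library with the lowest Slfn1, the edgeR value was -1.28 (adjusted p 0.0281), past the thresholds with 1.49% of genes and past the adjusted p with 1.38%. Without WT replicate 2, the WT library with the highest Slfn1, it was -0.80 (adjusted p 0.695). With replicates 2 and 3 alone it was -1.27 (adjusted p 0.00223), in a fit where 3.83% of genes passed the thresholds and 12.6% the adjusted p. Ranked by p over the 9627 genes, Slfn1 was at position 175 without the block and 219 with it.

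Genes listed as markers of other cell types were read in the same libraries. For natural killer cells the list held Ncr1, Klrb1c, Klrb1a, Tyrobp and Gata2. The summed CPM of these 5 genes was 3.69, 5.42 and 7.10 in WT and 15.1, 64.5 and 56.5 in Scd-1-/- libraries, without overlap. The receptor gene Klrb1c made up most of it, with 37, 55 and 65 counts in WT and 126, 645 and 602 in Scd-1-/- libraries (log2 fold change 3.09, adjusted p 0.121 in edgeR, with the replicate block 2.88 and 0.0059). The adaptor gene Tyrobp rose past the thresholds (log2 fold change 3.23, adjusted p 0.0646 in edgeR, with the block 3.18 and 0.0025), while Ncr1 had at most 5 counts in any library. Without the block, 0.738% of all genes tested passed the thresholds in either direction. Which cells the Klrb1c and Tyrobp RNA came from was not tested.

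Sums of 14 myeloid markers overlapped between the groups (50.9, 19.8 and 21.6 CPM in WT replicates 1, 2 and 3 against 107, 37.9 and 31.5 in Scd-1-/-), and were higher in the Scd-1-/- library in 3 of 3 pairs. Cd68 and Itgax made up most of these sums. Cd68, named after its values were seen, had 524, 226 and 244 counts in WT and 874, 279 and 276 in Scd-1-/- libraries. Its groups overlapped (log2 fold change 0.48, adjusted p 0.833 in edgeR). Cd14, a receptor of monocytes that lay under the FPKM minimum, rose past the thresholds from 11, 5 and 4 to 28, 42 and 40 counts (log2 fold change 2.41, adjusted p 0.0956 in edgeR, with the block 2.41 and 0.0287). In the unblocked fit of all genes with a count, 0.861% passed the thresholds in either direction. The integrin genes Itgax and Itgam, named after their values were seen, had overlapping groups (log2 fold changes 1.69 and 2.35, adjusted p 0.529 and 0.524 in edgeR). With the block Itgax passed both rules (1.78, adjusted p 0.0059 in edgeR) and Itgam the adjusted p (2.43, adjusted p 0.0464 in edgeR). Lyz2, S100a8, Ms4a7, Csf1r and Csf3r had at most 5 counts in any library, and Adgre1, S100a9, Mpo and Fcgr1 were at 0 in all 6 libraries.

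The summed CPM of 8 B cell markers was 596, 423 and 323 in WT and 324, 216 and 234 in Scd-1-/- libraries. The groups overlapped narrowly, and the sum was lower in the Scd-1-/- library of each replicate number. It was nearly all Ighm (immunoglobulin heavy chain mu) and Cd79b, whose log2 fold changes of -0.77 and -1.02 passed neither rule (adjusted p 0.387 each in edgeR, with the block 0.0262 and 0.0434), while the defining markers Ms4a1, Pax5 and Blnk were at 0 in all 6 libraries. Sums of 4 CD4 T cell markers overlapped (43.3 to 84.3 CPM in WT and 56.6 to 79.5 in Scd-1-/-) and were nearly all Zbtb7b. Cd4 itself, named after its values were seen, had 8, 24 and 12 counts in WT and 5, 2 and 1 in Scd-1-/- libraries (log2 fold change -2.49, adjusted p 0.344 in edgeR). Of 8 CD8 T cell markers, all tested, none passed either rule. Their sums overlapped (5391, 4653 and 4413 CPM in WT and 5156, 4345 and 4473 in Scd-1-/-), and their median log2 fold change was -0.02. Cd8a, likewise named after its values were seen, had 43.2, 47.6 and 47.05 FPKM in WT and 36.6, 27.9 and 33.7 FPKM in Scd-1-/- libraries, without overlap (log2 fold change -0.46, adjusted p 0.297 in edgeR, with the block -0.47 and 0.0630). It was the only marker of the 8 whose groups did not overlap, beside 8.32% of all genes tested that were lower without overlap. The sums of 6 platelet markers, 0.428 to 0.633 CPM in WT and 0.780 to 1.39 CPM in Scd-1-/-, came mostly from Itga2b, with 3 of the 6 at 0. The part of any of these markers in the Slfn1 difference was not tested.

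Slfn2, the short form needed for T cell quiescence, had 55.7, 91.0 and 73.6 FPKM in WT and 53.6, 77.3 and 78.4 FPKM in Scd-1-/- libraries. The replicate-1 library was the lowest of each genotype, the groups overlapped, and the within-replicate ratios were 0.961, 0.855 and 1.11. The log2 fold change was -0.05 (SE 0.219, adjusted p 0.966 in edgeR), with a 95% confidence interval of -0.56 to 0.46. With the replicate block the interval narrowed to -0.30 to 0.22 around -0.04. A change of Slfn2 as large as the Slfn1 estimate thus lay outside the interval in both fits.

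Since Slfn1 and Slfn2 are neighbours of the same class, their levels were set against each other within a library, where depth and scaling cancel. The ratio of Slfn1 to Slfn2 FPKM was 0.337, 0.425 and 0.413 in WT and 0.253, 0.195 and 0.164 in Scd-1-/- libraries. All Scd-1-/- ratios were below all WT ratios, and within each replicate number the Scd-1-/- ratio was the lower one. The means were 0.391 ± 0.0477 in WT and 0.204 ± 0.0450 in Scd-1-/- (SD, n = 3 each, two-sided exact permutation test, p = 0.1, the smallest p that 3 libraries against 3 can give). Slfn1 took 24.4% to 30.0% of the members' counts in WT and 14.4% to 19.0% in Scd-1-/- libraries. The corresponding ratio of Slfn3 to Slfn2 overlapped between the groups (0.0555 ± 0.0264 and 0.0627 ± 0.0344, SD, n = 3 each, two-sided exact permutation test, p = 0.6).

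**Figure D2:**
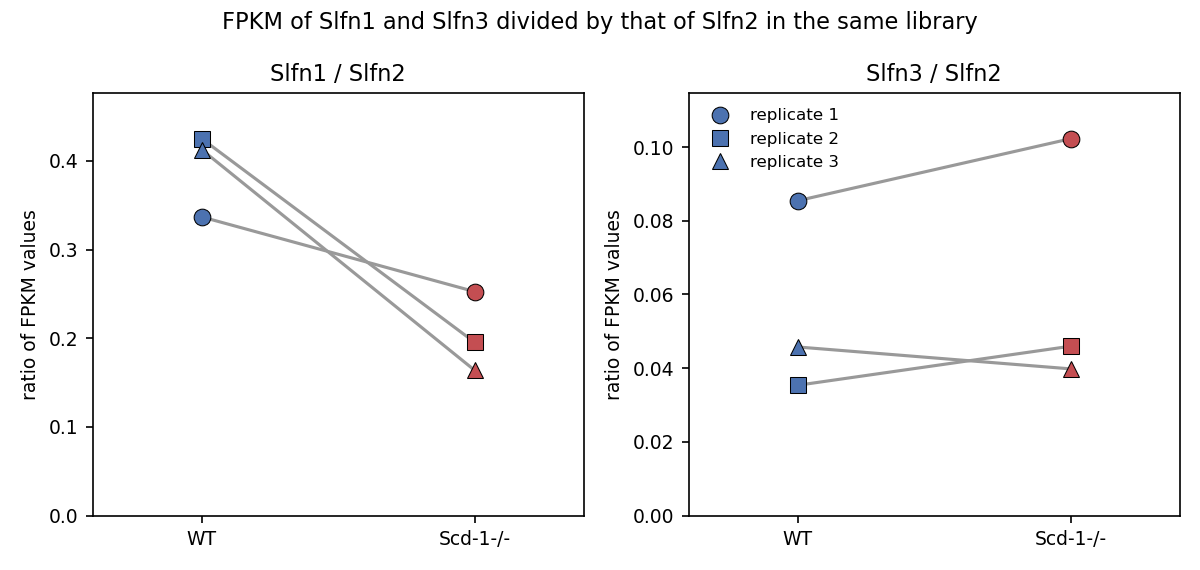
Ratio of the FPKM of Slfn1 (left) and Slfn3 (right) to that of Slfn2 in the same library (y axes, no unit), with grey lines joining WT and Scd-1-/- libraries of the same replicate number. The Slfn1 ratio lies between 0.337 and 0.425 in WT and between 0.164 and 0.253 in Scd-1-/- libraries, whereas the Slfn3 ratios overlap and are highest in replicate 1 of both genotypes.

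Slfn3, an intermediate form, had 131, 82 and 87 counts in WT and 155, 91 and 90 in Scd-1-/- libraries, or 4.76, 3.22 and 3.37 FPKM against 5.48, 3.55 and 3.12 FPKM. It was highest in the replicate-1 library of each genotype, the reverse of Slfn2, and the groups overlapped. Over the 6 libraries, log2 CPM of Slfn2 and Slfn3 had a Pearson r of -0.927, given as a description of 6 points, of which the replicate-1 pair lies apart from the other 4 in both genes. The log2 fold change of Slfn3 was 0.12 (SE 0.308, 95% confidence interval -0.60 to 0.84, adjusted p 0.940 in edgeR). Slfn4, the other intermediate form and a gene of myeloid cells, had 0 counts in 5 libraries and 3 in Scd-1-/- replicate 1, which is not above the limit of 3 counts, and no fold is given.

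The long forms were scarce. Slfn8 had 57, 79 and 71 counts in WT and 81, 75 and 68 in Scd-1-/- libraries, with means of 0.767 ± 0.152 and 0.790 ± 0.0904 FPKM (SD, n = 3 each) and a log2 fold change of 0.05 (SE 0.301, 95% confidence interval -0.61 to 0.72, adjusted p 0.969 in edgeR). Slfn9 had 42, 70 and 41 counts in WT and 47, 49 and 38 in Scd-1-/- libraries, with means of 0.532 ± 0.188 and 0.445 ± 0.0813 FPKM (SD, n = 3 each) and a log2 fold change of -0.25 (SE 0.372, 95% confidence interval -1.07 to 0.57, adjusted p 0.850 in edgeR). The groups overlapped for both, and a change of 1 on the log2 scale lay outside the interval of Slfn8 but not of Slfn9. Because the copies are so alike they were also summed, which gave a log2 fold change of -0.05 (adjusted p 0.967 in edgeR). Slfn5 had 9, 0 and 4 counts in WT and 4, 0 and 1 in Scd-1-/- libraries, and its interval is wide (log2 fold change -1.35, 95% confidence interval -4.42 to 1.72, adjusted p 0.770 in edgeR). The value rests on single libraries, at -0.33 without WT replicate 1 and -2.83 without Scd-1-/- replicate 1.

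Of the relatives, Slfn10-ps had 56, 31 and 48 counts in WT and 41, 33 and 31 in Scd-1-/- libraries (log2 fold change -0.40, SE 0.362, adjusted p 0.770 in edgeR), and Slfn14 and Slfnl1 had 0 counts in all 6 libraries. The genes beside the cluster were compared to see whether the difference extended past Slfn1. On the one side Nle1, a ribosome assembly factor, had a log2 fold change of 0.06 and Unc45b and Fndc8 were at or near 0 FPKM. On the other side Ap2b1, an adaptor of endocytosis, had 0.06 and Rasl10b was near 0 FPKM. None of these genes passed the thresholds or the adjusted p. Within the cluster, the non-coding AI662270 between Slfn3 and Slfn14, picked after its values were seen, averaged 54.1 ± 5.00 FPKM for WT and 61.5 ± 13.1 FPKM for Scd-1-/- libraries (SD, n = 3 each), with a log2 fold change of 0.21 (adjusted p 0.784 in edgeR).

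**Figure D3:**
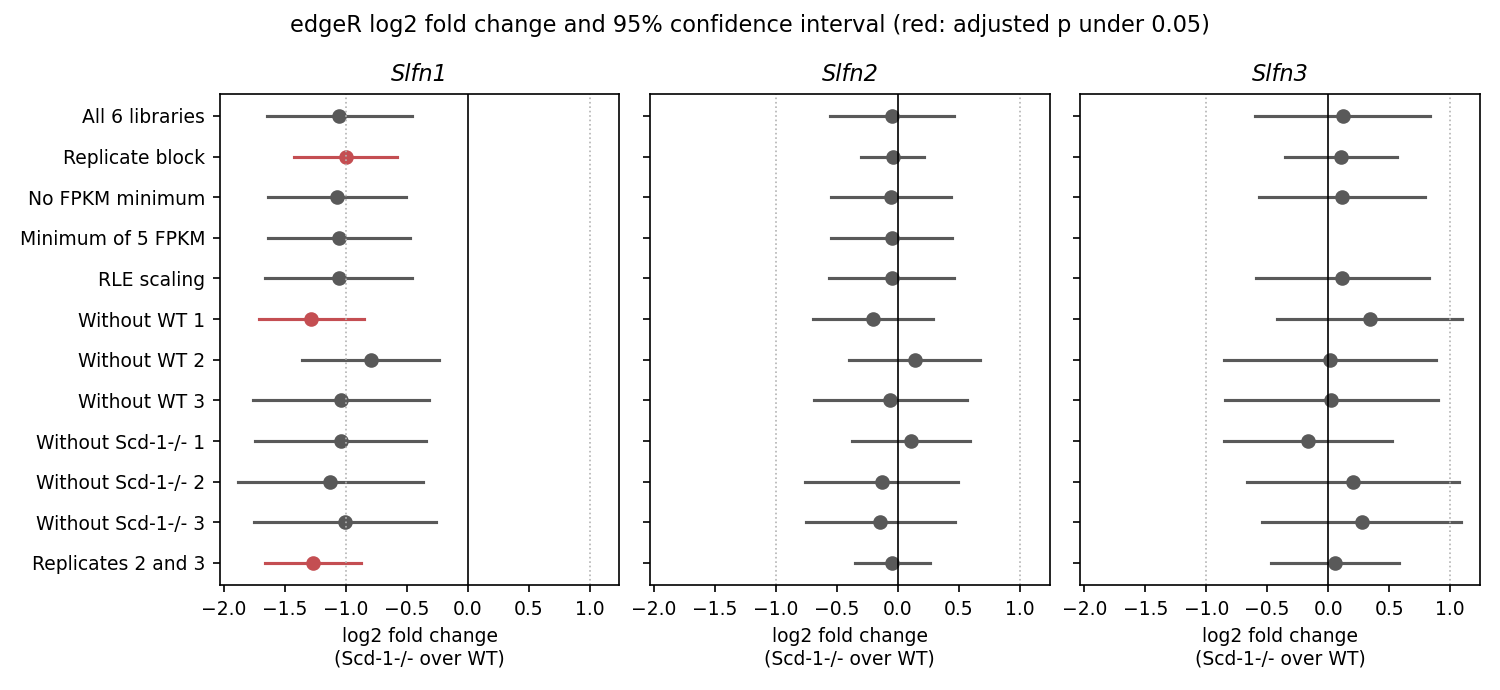
edgeR log2 fold change (x axes, Scd-1-/- over WT, points) with its 95% confidence interval (lines) for Slfn1, Slfn2 and Slfn3 under each edgeR setting (rows), in red where the adjusted p was under 0.05, with dotted lines at -1 and 1. Slfn1 lies between -1.28 and -0.80 with every interval below 0, the intervals of Slfn2 and Slfn3 include 0 throughout, and Slfn3 has no value at a minimum of 5 FPKM.

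The genes whose levels followed the short forms most closely were taken from the 9626 others tested, by Pearson r of log2 CPM over the 6 libraries. For Slfn1 they were Mapk1ip1l (r = 0.994), the mitochondrial chaperone Trap1 (r = 0.993) and the actin-binding adaptor Dbnl (r = 0.993). All 3 were lower in every Scd-1-/- than in every WT library, though by less than Slfn1 (log2 fold changes of -0.20, -0.29 and -0.27, with adjusted p of 0.637, 0.501 and 0.516 in edgeR). For Slfn2 they were Drg1 (r = 0.984), a GTP-binding protein, the kinase gene Akt1 (r = 0.983) and Dpagt1 (r = 0.983), an enzyme of N-glycosylation. Their groups overlapped and they shared the low replicate-1 libraries of Slfn2, with Akt1 at 61.8 and 59.9 FPKM there and 77.1 to 81.8 FPKM in the other 4. Correlations over 6 libraries, picked as the highest of 9626, are descriptions only.

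The Schlafen genes belong to a wider set of genes that hold T cells at rest, and 25 such quiescence regulators were listed, of which 22 exceeded the FPKM minimum. One fell and none rose past the thresholds, beside 0.738% of all genes tested that passed in either direction. The 1 that fell was Tcf7, the TCF1 transcription factor of naive and memory T cells, with 43.8, 78.2 and 66.0 FPKM in WT and 7.51, 6.47 and 5.55 FPKM in Scd-1-/- libraries (log2 fold change -3.24, SE 0.242, adjusted p 0.00434 in edgeR). Its WT values had the same order as those of Slfn1 and of Slfn2, lowest in replicate 1 and highest in replicate 2. Among Scd-1-/- libraries, Tcf7 was highest in replicate 1 and Slfn1 in replicate 2. The median log2 fold change of the list was -0.08, beside -5.1e-04 for all genes tested, with 13 of 22 below 0. Groups did not overlap for 3 members that were lower and 3 that were higher in Scd-1-/- libraries, beside 8.32% and 7.67% of all genes tested. With the replicate block, Ets1 passed the adjusted p as well (log2 fold change -0.57, adjusted p 0.0296 in edgeR, without the block -0.57 and 0.284). In the block fit 4.7% of all genes tested passed the adjusted p. Ets1 is a founding member of the ETS factors.

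Interferon-stimulated genes were examined since Schlafen genes are themselves induced by interferon. Of 28 listed genes 20 were tested, and none passed the thresholds or the adjusted p in edgeR, while 1 was higher and 4 were lower at an unadjusted p under 0.05 (10.1% of all genes tested), and DESeq2 called 1 by the thresholds (1.67% of all genes tested). In 17 of 20 the log2 fold change was below 0, with a median of -0.28. Groups did not overlap for 7 genes that were lower and 1 that was higher, beside 8.32% and 7.67% of all genes tested. The summed CPM of the list was 1112, 1095 and 1116 in WT and 906, 768 and 755 in Scd-1-/- libraries.

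The antiviral GTPase gene Mx1 had 2.83, 0.881 and 1.47 FPKM in WT and 4.45, 3.59 and 3.98 FPKM in Scd-1-/- libraries (log2 fold change 1.23, adjusted p 0.361 in edgeR, with the replicate block 1.36 and 0.0326). With the block it passed the thresholds, as did 1.91% of all genes tested. Stat2 and Irf9, transcription factors of interferon signalling, were named after their values were seen and had log2 fold changes of -0.76 and -0.60 (adjusted p 0.273 and 0.488 in edgeR, with the block 0.0806 and 0.0441). The long forms Slfn5, Slfn8 and Slfn9, whose windows hold the interferon element, had overlapping groups, as given with their counts.

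Among 11 genes of interferon ligand, receptors and signalling, all tested, none passed the thresholds or the adjusted p in edgeR, 3 were lower and none higher at an unadjusted p under 0.05 (10.1% of all genes tested), and DESeq2 called 1 by the thresholds (1.67%). Ifngr2, a chain of the interferon-γ receptor, had 1.15, 3.21 and 2.61 FPKM in WT and 0.275, 0.364 and 0.630 FPKM in Scd-1-/- libraries (log2 fold change -2.42, adjusted p 0.120 in edgeR, with the block -2.38 and 0.0089). The log2 fold change of Ifng, interferon-γ itself, was 1.24 with overlapping groups (adjusted p 0.650 in edgeR, with the block 1.57 and 0.0232). With the block 1 gene of the list was higher and 1 lower past the thresholds, beside 1.91% of all genes tested.

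Transfer RNA cleavage and protection, the process in which Slfn2 acts, was represented by 11 listed genes, of which 10 were tested. None passed the thresholds or the adjusted p in edgeR, DESeq2 called 0 by the thresholds, and 1 was higher at an unadjusted p under 0.05 (10.1% of all genes tested). This was Eif2ak3, the endoplasmic reticulum stress kinase PERK, with 10.2, 6.58 and 7.70 FPKM in WT and 13.5, 15.9 and 12.97 FPKM in Scd-1-/- libraries (log2 fold change 0.81, adjusted p 0.203 in edgeR, with the block 0.83 and 0.0355). Like Eif2ak1, Eif2ak4 and Eif2s1 in the list, Eif2ak3 belongs to stress signalling and does not itself cleave or protect transfer RNA. The next largest was the tRNA methyltransferase gene Nsun2 at -0.20 (adjusted p 0.898 in edgeR), and the median of the list was -0.04. Ang, the nuclease angiogenin, was under the FPKM minimum.

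Cell cycle genes were set beside the Schlafen genes because loss of quiescence is read as division. Of 29 listed genes 28 were tested, and none passed the thresholds or the adjusted p in edgeR, with or without the block, DESeq2 called 0 by the thresholds, and 1 was higher and 1 lower at an unadjusted p under 0.05 (10.1% of all genes tested). The median log2 fold change was -0.02, with 15 of 28 below 0. The largest were the proliferation marker Mki67 at 0.44 (adjusted p 0.468 in edgeR) and the replication helicase subunit Mcm5 at -0.42 (adjusted p 0.407 in edgeR). Ccnd1, the cyclin D1 gene, had 5, 0 and 2 counts in WT and 7, 0 and 0 in Scd-1-/- libraries, which does not allow a comparison at this depth.

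**Figure D4:**
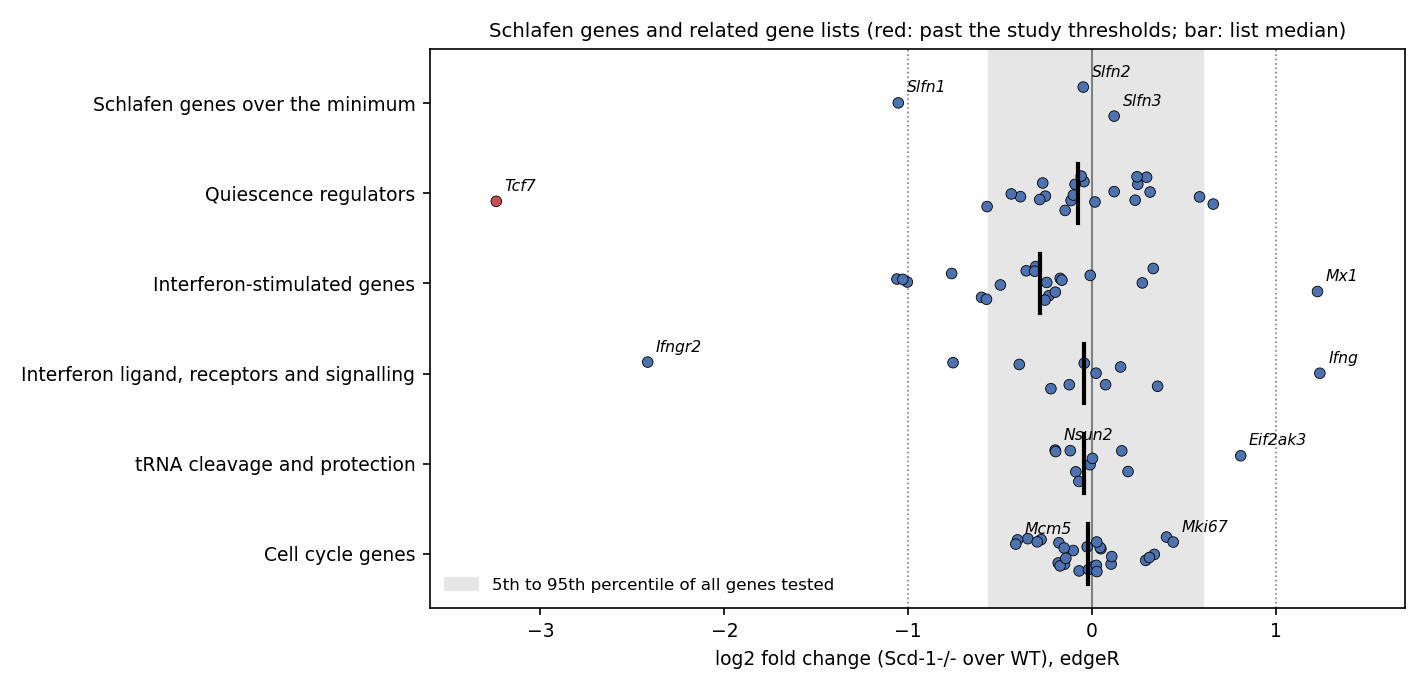
edgeR log2 fold change (x axis, Scd-1-/- over WT) of the 3 Schlafen genes over the FPKM minimum and of every tested gene of 5 lists (rows, points spread vertically for legibility), in red where past the thresholds, with a black bar at each list's median and a grey band from the 5th to the 95th percentile of all 9627 genes (-0.56 to 0.60). Slfn1 at -1.05 lies outside the band and Slfn2 and Slfn3 inside it, and Tcf7 at -3.24 is the one red point.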

How the data were processed

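The labels gave 3 WT and 3 Scd-1-/- Teff libraries. The authors aligned reads with HISAT2 to GRCm38, counted them per gene with StringTie 1.3.0, and deposited for each library raw counts and FPKM. The deposited FPKM carries no TMM factor: the gene length it implies differed between libraries by at most 1.4e-05 of itself. Labels and methods disagree on extraction (Trizol or a column) and library kit (poly(A) or stranded total RNA).

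Counts were tested with edgeR 4.0.16 (quasi-likelihood, TMM) at a mean FPKM of at least 1, after checks on simulated data. Depth and the thresholds stand in the report. Exact permutation tests of 3 against 3 cannot give a p under 0.1. DESeq2 1.42.0, limma 3.58.1 with pseudocounts of 1 and 0.1, other minimums and scaling, summed copies, a replicate block and fits without 1 library were alternatives, and a fit to replicates 2 and 3 was added after the data were seen. Same-numbered libraries deviated together from their group means (r = 0.595, 0.306 and 0.470 for replicates 1, 2 and 3 over 9627 genes, which are not independent). So did WT replicate 3 with Scd-1-/- replicate 2 (r = 0.380) and WT replicate 2 with Scd-1-/- replicate 3 (r = 0.180). Only replicate 1 thus stands apart as a pair, and these values do not tell replicates 2 and 3 apart. The pairing comes from the replicate numbers in the labels, which do not say what a number stands for.

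The members and lists were chosen with earlier results of these data known. Named genes are the members and relatives, Scd1, Ccnd1, list genes past the thresholds (otherwise the largest 2 by size of log2 fold change), the nearest 3 coding genes on each side of the cluster, and the 3 genes most correlated with Slfn1 and Slfn2. Some genes that this rule names are not reported here. Vsir and Itgam were matched by Ensembl ID. Sequence identity was computed with edlib 1.3.9. Protein sequences were not used here.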

Additional observations from a re-analysis of the deposited data

How the results depend on the processing

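No Schlafen member passed the thresholds, and none the adjusted p, in the edgeR fit without pairing. With the replicate block 1 member did by each rule (Slfn1, log2 fold change -1.003), as did 1 with DESeq2 and 1 with replicates 2 and 3 alone (Slfn1, -1.27, adjusted p 0.00223 in edgeR). Leaving out 1 library in turn gave 0 to 1 members by each rule, and the 1 came without WT replicate 1. Slfn1 stayed below 0 in all 15 alternatives (-1.28 to -0.80). Interferon-stimulated genes past the thresholds numbered 0, but 1 with DESeq2, 2 with the replicate block, 3 with replicates 2 and 3 alone, and 0 to 2 with 1 library left out. Quiescence regulators (1) and cell cycle genes (0) kept their counts under each alternative. The pairing changed no other member's call. Leaving out 1 library gave log2 fold changes of -0.20 to 0.14 for Slfn2, -0.17 to 0.34 for Slfn3, -0.0790 to 0.21 for Slfn8, -0.39 to 0.10 for Slfn9 and -2.83 (without Scd-1-/- replicate 1) to -0.33 (without WT replicate 1) for Slfn5, and the sign turned without WT replicate 2 (Slfn2 0.14, Slfn9 0.10), Scd-1-/- replicate 1 (Slfn2 0.11, Slfn3 -0.17) and WT replicate 1 (Slfn8 -0.0790). Slfn8 was -0.11 with replicates 2 and 3 alone and -0.0546 summed with Slfn9. The cause was not tested. Depth limits Slfn4, Slfn5 and Ccnd1, which have 9 counts or fewer in each library.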

Other observations

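Klf2 and Ifng, genes of resting and of effector T cells, were highest in the replicate-1 library of both genotypes. Klf2, a transcription factor of resting T cells that was picked after its values were seen, had 70.5 and 68.8 FPKM in the WT and Scd-1-/- libraries of replicate 1, against 15.8 and 13.5 FPKM in WT replicates 2 and 3 and 25.6 and 27.5 FPKM in Scd-1-/- replicates 2 and 3. Ifng had 17.2 and 30.9 FPKM in the same pair, against 3.13 and 2.68 FPKM in the other WT and 11.6 and 11.7 FPKM in the other Scd-1-/- libraries. Within each replicate number Ifng was higher in the Scd-1-/- library, whereas Klf2 was higher in it in replicates 2 and 3 and not in replicate 1.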
